A study of Rattus norvegicus with 4 samples.

Results

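The guidance genes described here encode the ephrins and their Eph receptors, the semaphorins with their plexin and neuropilin receptors, the Slits with their Robo receptors, and the netrins with their Unc5 receptors. The families were picked with earlier results of these data known, and the members within them by gene symbol, as every row of the deposited expression table whose name belongs to one of these families, which gave 67 of 32623 genes. The study sequenced RNA from rat tendon stem/progenitor cells, abbreviated TSPC in the labels, in 4 libraries. Cells in 2 libraries had been treated with U0126, which blocks the kinase MEK and thereby the activation of ERK, and cells in the other 2 had been treated with DMSO, the solvent. Both groups were otherwise labelled alike, as TSPC from tendon with no genetic change, and the dose, the exposure time and the rats' strain, sex and age were not stated in any source used here. The comparison asks how transcript levels in these cells differ when the MEK-ERK pathway is blocked.

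Guidance molecules were first described in growing axons, where they attract or repel the growth cone. Ephrins are tethered to the cell surface, type A by a lipid anchor and type B by a membrane-spanning segment, and they bind Eph receptor tyrosine kinases on the neighbouring cell, with signals running into both cells. Secreted class 3 semaphorins bind neuropilins, which pair with A-type plexins, while most membrane-bound semaphorins bind plexins directly. Slits are large secreted proteins that act through Robo receptors, and netrins are laminin-related secreted proteins that act through DCC, neogenin and the Unc5 family. Fibroblasts, bone cells and blood vessel cells use the same molecules in adhesion, migration and tissue boundaries.

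Total counts were 38671289 and 36888913 in the U0126 libraries and 38890310 and 42785190 in the control libraries, of which the guidance genes took between 0.233% and 0.254%. The labels call the libraries biological replicates without naming the animal or culture, so a p-value here gauges the spread from library to library, which may be technical, and nothing wider. All values below rest on 2 libraries per group. Of 14 tested tendon progenitor markers 6 were higher, among them Scx, the tendon transcription factor scleraxis (1.70-fold), and Fmod (2.41-fold), and 3 were lower, among them Tnc (2.91-fold), while Tnmd, which marks mature tendon cells, had 2 and 0 counts with U0126 and 2 and 5 in controls. Defining markers of several cell types that use guidance molecules were at 0. The endothelial genes Cdh5, Tie1, Cldn5 and Emcn, the neuronal genes Rbfox3, Snap25, Nefm, Elavl3 and Elavl4, the epithelial genes Cdh1 and Epcam and the Schwann cell factor Sox10 had 0 counts in all 4 libraries. None of the 3 tested endothelial and 2 tested neuronal markers passed, the lowest edgeR adjusted p being 0.277 for Stmn2. The detected ones were chiefly Egfl7 and Stmn2, and the summed level was 23.7 and 23.6 CPM with U0126 and 25.7 and 24.7 CPM in controls for the endothelial list, and 18.3 and 17.7 CPM with U0126 and 22.7 and 18.4 CPM in controls for the neuronal list (CPM are counts scaled to library size). Of 2 tested epithelial markers 1 was higher, the keratin Krt18, with 10 and 10 counts with U0126 and 0 counts in both controls. Krt18 passed the filter on low counts only through its U0126 libraries. The better detected keratin Krt8 did not pass (edgeR adjusted p = 0.277). The summed level of the 8 epithelial markers, mostly Krt8, was 3.74 and 3.84 CPM with U0126, against 2.62 and 2.83 CPM in controls. Other markers moved with the treatment. The summed level of 8 Schwann and glial markers was 44.4 and 26.9 CPM with U0126, against 13.4 and 8.62 CPM in controls, with 2 of 3 tested markers higher. Most of that sum was the single gene S100b, at 41.0 and 24.6 CPM with U0126 and 12.7 and 7.17 CPM in controls. Of 7 tested pericyte and smooth muscle markers 3 were higher and 3 lower, with sums of 4536 and 5334 CPM with U0126 and 7998 and 8366 CPM in controls. These sums were mostly Acta2, which was lower together with Des and Myh11. Kcnj8 (21.1-fold), Abcc9 (4.23-fold) and Notch3 (1.89-fold) were higher. All 3 tested skeletal muscle markers were lower, with sums of 82.5 and 123 CPM with U0126 and 193.9 and 217.6 CPM in controls. Nearly all of this was Acta1, at 80.7 and 122 CPM with U0126 and 189 and 214 CPM in controls. Another of the 3 was Myod1, with 9 and 3 counts with U0126 and 84 and 82 in controls. Myod1 passed the filter on low counts only through its control libraries. Pax7 had 0 counts in all 4 libraries. Myog, which was not tested, had 25 and 8 counts with U0126 and 6 and 0 in controls. Of 5 tested macrophage and blood markers, 1 was lower, with sums of 12.5 and 11.2 CPM with U0126 and 15.8 and 15.4 CPM in controls. The lower one was Adgre1, with 2 and 0 counts with U0126 and 23 and 16 in controls. Adgre1 passed the filter on low counts only through its control libraries. Most of the sum was Cd14, which did not pass. The markers Ptprc, Aif1 and Tyrobp of this list had 0 counts in all 4 libraries. The part of such cells in the guidance gene results was not tested, and fewer cells of a type cannot be told apart from less RNA per cell in bulk samples.

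Of the 67 guidance genes, 48 passed the filter on low counts and were tested, 9 had no count in any library and 10 had counts too low to test. With U0126, 11 of the 48 were higher, 4 were lower and 33 did not pass, by edgeR's quasi-likelihood test at a Benjamini-Hochberg adjusted p under 0.05 over all genes tested. The called share was 31.2% of the guidance genes, against 19.9% of all 14023 genes tested. Split by direction, 22.9% of the guidance genes were higher, against a background of 8.41%, and 8.33% were lower, against 11.5%. The median log2 fold change was 0.19 over the guidance genes and 0.02 over all genes tested. Ligands made up 11 of the 15 calls, with 8 of 28 tested ligands higher and 3 lower, a called share of 39.3%. Among receptors 3 of 20 tested were higher and 1 was lower, a share of 20.0% that lies at the background. Changes of at least 2-fold among called genes were found for 5 guidance genes, 10.4% of those tested against 8.04% of all genes. The libraries of the 2 groups did not overlap for 33 of the 48, or 68.8%, which is close to the 62.8% over all genes tested.

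**Figure D1:**
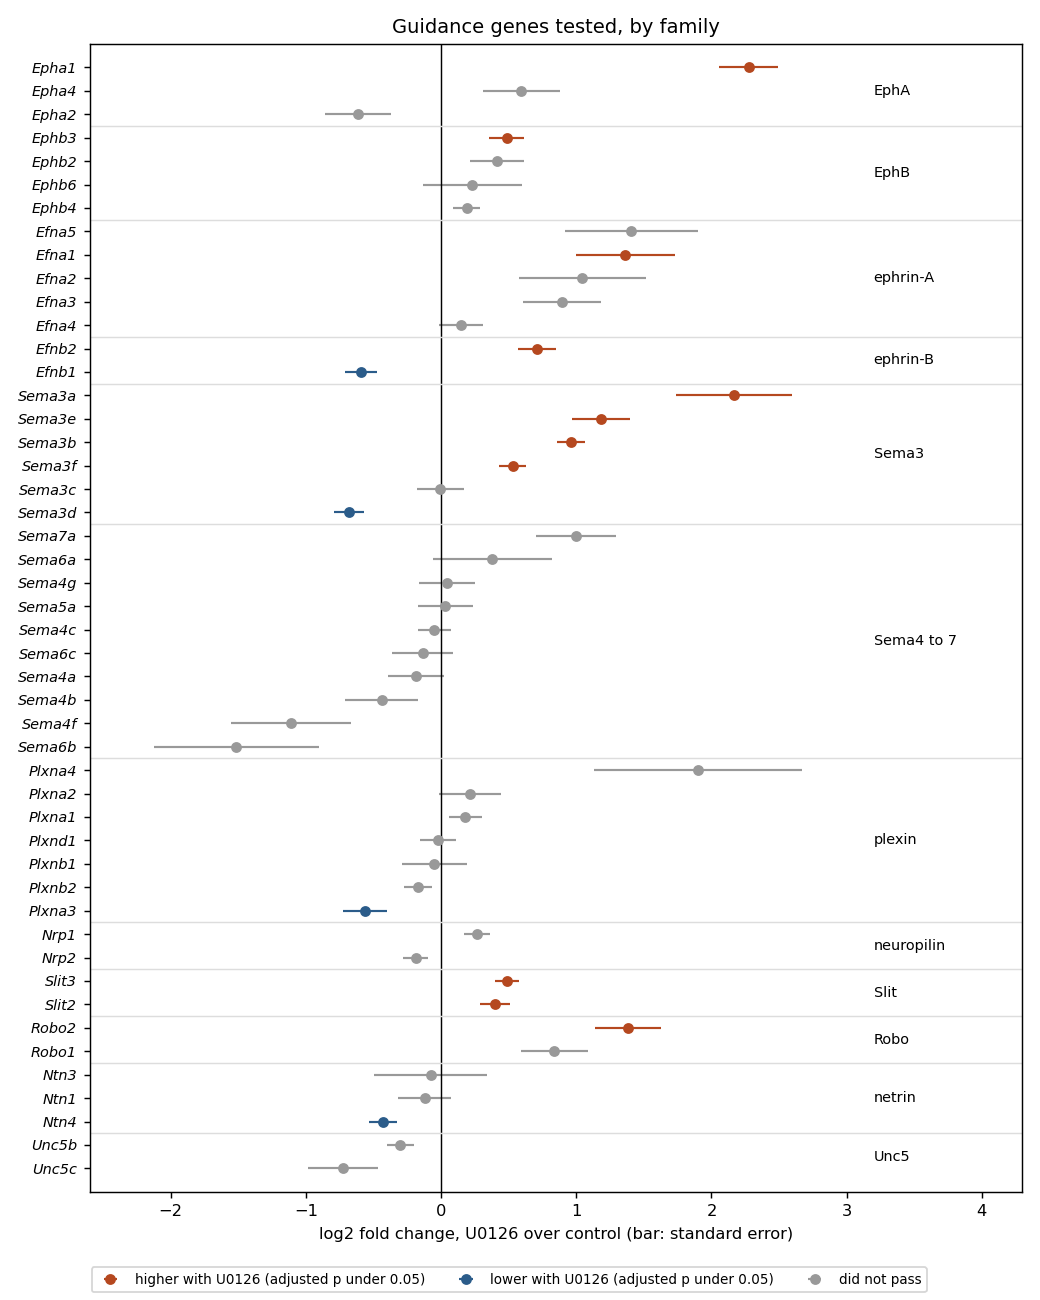
Log2 fold change of the 48 tested guidance genes, U0126 over control, on the horizontal axis, with bars for 1 standard error and the genes grouped by family down the page. Coloured points passed an adjusted p of 0.05, 11 to the right of 0 and 4 to the left, and the widest bars belong to genes of low count such as Plxna4 and Sema6b.

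The number of calls depended on the control libraries. With a library left out, its group's spread is taken from the other group. The SD over genes of replicate 1 minus replicate 2 was 0.344 log2 CPM in U0126 and 0.233 log2 CPM in controls. Its part in these counts was not tested. Guidance genes tested were 53 of 14441 without control replicate 1 and 52 of 14409 without control replicate 2. The called share of guidance genes lay below that of all genes in the first case and near it in the second. Without control replicate 1 there were 2 called guidance genes, Epha1 and Sema3b, and without control replicate 2 there were 4, which added Robo2 and Sema3a. The 4 lower genes all lost their call with either control left out. Without U0126 replicate 1 there were 19 calls and without U0126 replicate 2 there were 21. The count over all genes moved in the same way, to 913 and 899 without control replicate 1 and 2 and to 3277 and 4644 without U0126 replicate 1 and 2, against 2792 with all libraries. Epha1 and Sema3b were the only guidance genes that kept their call in each of the 11 alternatives tried. All 15 called genes kept their direction in every alternative in which they were tested.

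**Figure D2:**
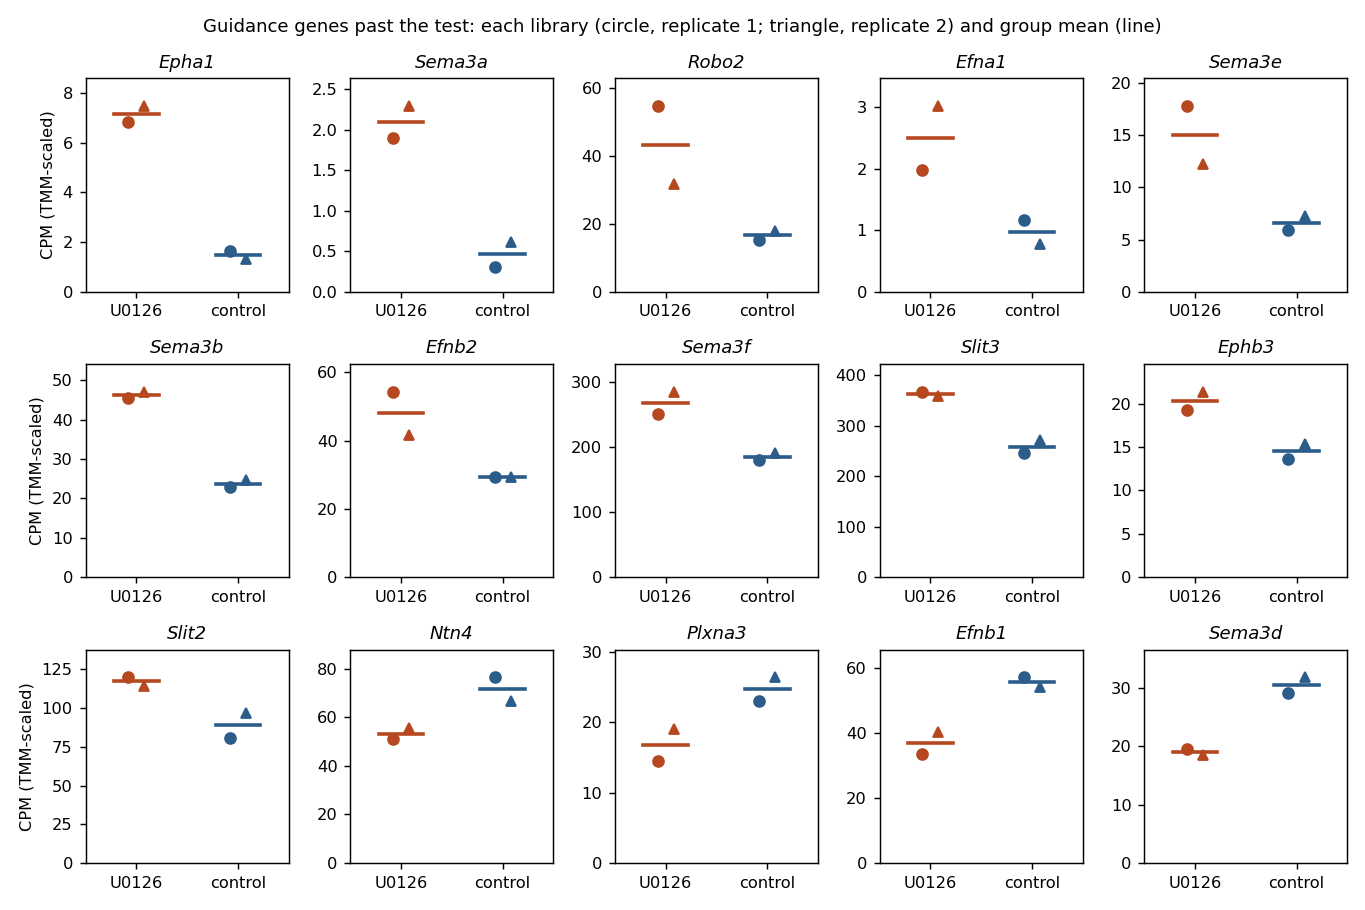
CPM of the 15 called guidance genes in each library, on a linear axis from 0, with U0126 to the left of control in each panel, circles for replicate 1, triangles for replicate 2 and a line at the group mean. In all 15 panels both U0126 libraries lie on the same side of both controls, as for 62.8% of all genes tested. The panels show genes picked by a test on these same libraries, so this separation is no further support. The U0126 libraries of Robo2, at 54.7 and 31.8 CPM, differ by 1.72-fold, the largest ratio among the higher genes above 10 CPM.

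Levels per transcript length ranked the genes differently from their changes. On the deposited TPM scale, which corrects for gene length, 6 tested guidance genes had a mean of 50 TPM or more over the 4 libraries, 12 lay between 10 and 50 TPM, 19 between 1 and 10 TPM and 11 below 1 TPM. The most abundant were the receptor Plxnb2 (mean level 114.7 TPM), the ligand Sema3f (114 TPM) and the ligand Slit3 (94.96 TPM). They were followed by the receptors Nrp2 (75.2 TPM) and Unc5b (56.2 TPM) and the ligand Ntn4 (52.3 TPM). Plxnb2 and Sema3f had levels above those of 90.5% of all genes tested. Sema3f was between 123 and 142 TPM with U0126 and between 91.3 and 100.3 TPM in controls, and Plxnb2 between 98.0 and 112.6 TPM with U0126 and between 116 and 132 TPM in controls, so which of the 2 stood higher differed between the groups. Genes with large changes were often scarce. Epha1, Efna1 and Sema3a had mean levels of 2.31, 1.95 and 0.65 TPM.

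**Figure D3:**
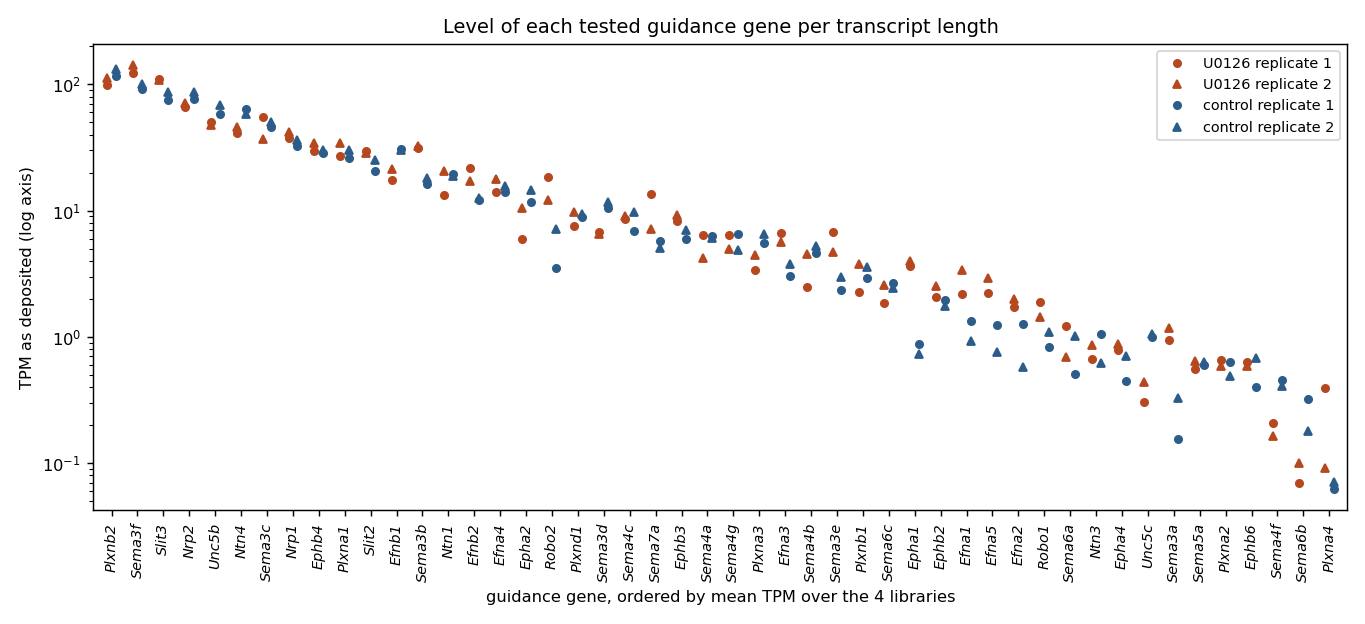
Deposited TPM of each tested guidance gene in the 4 libraries on a log axis, with genes ordered by mean TPM from Plxnb2 at 114.7 TPM to Plxna4 at 0.15 TPM. U0126 libraries are drawn to the left of control libraries, and the groups separate most clearly for scarce genes such as Epha1 and Sema3a.

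Among Eph receptors, 2 of 7 tested were higher with U0126, Epha1 and Ephb3, and the other 5 did not pass. That is a called share of 28.6%, against 19.9% of all genes tested. Epha1, an Eph receptor known mainly from epithelia (chromosome 4, 71749242 to 71763679, rn6), had 6.83 and 7.46 CPM in U0126 libraries, against 1.64 and 1.31 CPM in control libraries. Its libraries did not overlap between groups, and the log2 fold change was 2.28 ± 0.22 SE (edgeR adjusted p = 7.90e-04), the largest rise among the called guidance genes. The annotated end of Epha1 overlaps by 145 bases that of Zyx on the other strand, an abundant adhesion gene at 288 and 361 CPM with U0126 and 414 and 406 CPM in controls. Zyx itself did not pass (log2 fold change -0.34, edgeR adjusted p = 0.0958). The strand setting of the counting is not known, and how many Epha1 counts could be Zyx reads was not tested. Ephb3, a receptor for B-type ephrins, had 19.2 and 21.3 CPM with U0126 and 13.6 and 15.4 CPM in controls (log2 fold change 0.48 ± 0.13, edgeR adjusted p = 0.0435). This call was close to the threshold and was lost without either control, without U0126 replicate 2, with library totals alone, with no filter and with the replicate block, over a range of adjusted p from 0.0147 to 0.329 by edgeR, DESeq2 and limma.

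Ephb4, the most abundant Eph receptor at a mean of 30.6 TPM and the partner of ephrin-B2 in vein formation, had 70.0 and 79.8 CPM with U0126 and 65.0 and 66.4 CPM in controls. It did not pass (log2 fold change 0.19 ± 0.10, edgeR adjusted p = 0.232), except without U0126 replicate 1 (0.0437, in a range up to 0.623). Epha2, a receptor whose transcription responds to ERK signalling in several cell types, was the most abundant A-type receptor, with 13.6 and 23.6 CPM with U0126 and 25.8 and 31.2 CPM in controls. Both U0126 libraries lay below both controls, but the first lay far below the second, and Epha2 did not pass (log2 fold change -0.61 ± 0.25, edgeR adjusted p = 0.129). It passed, as lower, without U0126 replicate 2 (log2 fold change -1.08) and with the replicate block, over a range of adjusted p from 5.97e-04 to 0.491. Epha4, Ephb2 and Ephb6 did not pass, with log2 fold changes of 0.59, 0.42 and 0.23.

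The ephrin-B ligands moved in opposite directions. Efnb1 encodes ephrin-B1, which acts in the craniofacial skeleton and in bone (chromosome X, 68891227 to 68904038, rn6). It was lower, at 33.5 and 40.4 CPM with U0126 against 57.1 and 54.3 CPM in controls (log2 fold change -0.59 ± 0.12, edgeR adjusted p = 0.0135). Efnb2 encodes ephrin-B2, the arterial ephrin (chromosome 16, 86631064 to 86675049, rn6). It was higher, at 54.3 and 41.7 CPM with U0126 against 29.4 and 29.4 CPM in controls (log2 fold change 0.71 ± 0.14, edgeR adjusted p = 0.0132). Per transcript length, Efnb1 had 17.5 and 21.4 TPM with U0126 against 30.8 and 30.4 TPM in controls, and Efnb2 had 21.9 and 17.01 TPM with U0126 against 12.2 and 12.7 TPM in controls. Efnb1 was thus the more abundant of the pair in both controls, while with U0126 each of them led in 1 library. Both calls were lost without either control, with adjusted p up to 0.136 for Efnb1 and 0.115 for Efnb2 over the alternatives. The third member, Efnb3, had 4 and 12 counts with U0126 and 0 counts in both controls, and was too low to test. Against a floor of 3 counts over the control group, its pooled U0126 level was 5.98-fold higher. That ratio takes the U0126 counts as exact and is not a lower bound.

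Of the 5 ephrin-A genes, all tested, 1 was higher and 4 did not pass, a called share of 20.0% against 19.9% of all genes tested. Efna1, the inflammation-induced ephrin-A1 that binds EphA2, had 1.98 and 3.01 CPM with U0126 against 1.16 and 0.78 CPM in controls (log2 fold change 1.36 ± 0.37, edgeR adjusted p = 0.0407). The call was lost without either control, without U0126 replicate 2 and with the replicate block, over a range of adjusted p from 0.0119 to 0.278. Efna2, Efna3 and Efna5 also had both U0126 libraries above both controls, as did 31.8% of all genes tested. Their log2 fold changes were 1.04 ± 0.47, 0.90 ± 0.29 and 1.41 ± 0.49, and they did not pass (edgeR adjusted p = 0.170, 0.0710 and 0.0914). Efna2 and Efna5 had between 12 and 49 counts per library. Efna3 passed, as higher, under CPM of at least 1 in all 4 libraries and without U0126 replicate 2. Efna4, the most abundant at a mean of 15.4 TPM, had 9.86 and 12.3 CPM with U0126 against 9.63 and 10.4 CPM in controls, and its groups overlapped (log2 fold change 0.15 ± 0.16). Efna1, Efna3 and Efna4 lie next to each other on chromosome 2, with gaps of 41.6 and 10.7 kb.

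The start regions of 4 called genes are shown because they carry the largest rise (Epha1), the opposed ephrin-B pair (Efnb1 and Efnb2) and the most abundant Robo receptor (Robo2). Each is RefSeq sequence of the GRCr8 build from 250 bases before to 50 bases after the annotated start, in the direction of the gene. Lower case marks the sequence and capitals a match to the ETS motif CCGGAA or to the AP-1 motif TGANTCA, searched on both strands. ETS and AP-1 factors are transcription factors that ERK acts on. The regions are chr4:72227425-72227724 (minus strand) for Epha1, chrX:68297279-68297578 (plus strand) for Efnb1, chr16:87484965-87485264 (plus strand) for Efnb2 and chr11:26526363-26526662 (minus strand) for Robo2.
Epha1: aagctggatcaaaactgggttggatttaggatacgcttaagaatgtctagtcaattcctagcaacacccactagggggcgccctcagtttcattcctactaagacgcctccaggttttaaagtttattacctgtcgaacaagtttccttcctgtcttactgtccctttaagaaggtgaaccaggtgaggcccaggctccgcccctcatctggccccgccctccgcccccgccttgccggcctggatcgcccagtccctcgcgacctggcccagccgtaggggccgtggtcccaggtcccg
Efnb1: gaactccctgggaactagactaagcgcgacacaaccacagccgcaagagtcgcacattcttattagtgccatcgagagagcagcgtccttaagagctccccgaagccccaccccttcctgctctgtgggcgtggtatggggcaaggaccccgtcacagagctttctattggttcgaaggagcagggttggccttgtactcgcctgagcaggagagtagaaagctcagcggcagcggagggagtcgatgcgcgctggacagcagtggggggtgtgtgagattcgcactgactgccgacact
Efnb2: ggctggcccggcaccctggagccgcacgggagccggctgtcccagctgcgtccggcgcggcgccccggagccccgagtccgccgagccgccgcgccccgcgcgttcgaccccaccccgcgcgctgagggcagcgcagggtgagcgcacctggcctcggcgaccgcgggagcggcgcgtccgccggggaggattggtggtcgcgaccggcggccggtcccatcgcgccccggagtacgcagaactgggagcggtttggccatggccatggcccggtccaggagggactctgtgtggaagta
Robo2: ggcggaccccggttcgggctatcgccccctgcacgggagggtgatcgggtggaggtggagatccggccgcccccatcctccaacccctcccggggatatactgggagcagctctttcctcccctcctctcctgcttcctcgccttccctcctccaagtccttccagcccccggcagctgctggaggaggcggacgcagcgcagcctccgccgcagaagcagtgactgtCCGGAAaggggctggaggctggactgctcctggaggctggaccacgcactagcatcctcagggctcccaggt
Robo2 was the one of these 4 with a match, to the ETS motif. Efnb2 had 45 CpG dinucleotides and a GC content of 77.3%, against 18 and 59.0% for Efnb1, 15 and 57.3% for Epha1 and 18 and 68.3% for Robo2. The RefSeq table held 52 of the 67 guidance genes and 11 of the 15 called ones. Of these 11, 2 held the ETS motif, Robo2 and Sema3d, and 0 held the AP-1 motif, while 15% and 7.33% of all 33469 promoters in the table held them. No match of one motif overlapped a match of the other in the regions shown, and a match describes letters only.

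Class 3 semaphorins held 5 of the 15 calls, with 4 of 6 tested genes higher and 1 lower. Over all genes tested, 8.41% were higher and 11.5% lower. Sema3a, the founding axon repellent of the class, which also acts in bone (chromosome 4, 18178656 to 18396035, rn6), had 1.90 and 2.29 CPM with U0126 against 0.30 and 0.62 CPM in controls (log2 fold change 2.16 ± 0.43, edgeR adjusted p = 0.0136). It stayed scarce, with 72 and 83 counts with U0126 against 12 and 27 in controls. The size rested on the controls, at 2.78 without control replicate 2 and 1.75 without control replicate 1, where the call was lost (range of adjusted p 0.00168 to 0.105). Sema3b, a secreted semaphorin known as a growth suppressor in tumours (chromosome 8, 116354073 to 116361343, rn6), had 45.4 and 47.0 CPM with U0126 against 22.9 and 24.6 CPM in controls. The groups were tight and far apart (log2 fold change 0.96 ± 0.10, edgeR adjusted p = 0.0011), and the adjusted p stayed at or under 0.0281 over all alternatives.

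Sema3f, which signals through neuropilin 2 (chromosome 8, 116437696 to 116469915, rn6), had 251 and 285 CPM with U0126 against 181 and 191 CPM in controls (log2 fold change 0.53 ± 0.10, edgeR adjusted p = 0.0112). It lies 76.4 kb from Sema3b, and both rose. Sema3e, which binds plexin D1 without a neuropilin, had 17.8 and 12.2 CPM with U0126 against 5.95 and 7.26 CPM in controls (log2 fold change 1.18 ± 0.21, edgeR adjusted p = 0.00972). The member that fell was Sema3d, at 19.6 and 18.5 CPM with U0126 against 29.2 and 31.8 CPM in controls (log2 fold change -0.68 ± 0.11, edgeR adjusted p = 0.00697). Sema3f, Sema3e and Sema3d each lost the call without either control, with adjusted p up to 0.140, 0.0934 and 0.112. Sema3c, which acts in heart outflow tract development, was the second most abundant of the class at a mean of 47.1 TPM and had 162 and 109 CPM with U0126 against 132 and 140 CPM in controls. One U0126 library lay above and the other below both controls, and the log2 fold change was -0.01 ± 0.18. Sema3c passed, as lower, without U0126 replicate 1. On chromosome 4, Sema3e and Sema3a, which rose, and Sema3d, which fell, are neighbours, with 584 kb between the first pair and 828 kb between Sema3a and Sema3d. Sema3g had 6 and 6 counts with U0126 and 6 and 2 in controls and was not tested.

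Of 10 tested genes of semaphorin classes 4 to 7, which are bound to the membrane, 0 passed edgeR's test with all libraries, in either direction. At an unadjusted p under 0.05 there were 3, Sema4f, Sema6b and Sema7a, and of these Sema7a passed, as higher, under DESeq2, with the replicate block and without U0126 replicate 2. Sema4b passed, as lower, without U0126 replicate 2. Among the 10, 1 had both U0126 libraries above both controls and 3 had both below, against shares of 31.8% and 31% over all genes tested, so the 3 lie at the background. Sema7a, a lipid-anchored semaphorin that binds integrins and plexin C1, was nearest to the threshold, with 20.8 and 10.8 CPM with U0126 against 8.60 and 7.24 CPM in controls (log2 fold change 1.00 ± 0.30, edgeR adjusted p = 0.0563). Its U0126 libraries differed by 1.93-fold. Sema4c, the most abundant at a mean of 8.56 TPM, had 15.1 and 15.9 CPM with U0126 against 15.9 and 16.2 CPM in controls (log2 fold change -0.05 ± 0.12). Sema4f and Sema6b were the lowest of the tested class by fold, with log2 fold changes of -1.11 ± 0.44 and -1.51 ± 0.61, at levels of 0.31 and 0.17 TPM (edgeR adjusted p = 0.128 and 0.132). Sema6b, with 6 and 8 counts with U0126 against 28 and 17 in controls, was kept by the filter on low counts only through its control libraries. The other 6, Sema4a, Sema4b, Sema4g, Sema5a, Sema6a and Sema6c, lay between -0.44 and 0.38 on the log2 scale, and the libraries of the groups overlapped for each of them.

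Of 9 tested plexins and neuropilins, 1 was lower and the other 8 did not pass. That is a called share of 11.1%, against 19.9% of all genes tested. The lower one was Plxna3, a plexin of class 3 semaphorin signalling (chromosome X, 156363405 to 156379189, rn6), at 14.4 and 18.97 CPM with U0126 against 23.0 and 26.4 CPM in controls. Its log2 fold change was -0.56 ± 0.16, with an edgeR adjusted p of 0.0497 just inside the threshold, and the call was lost without either control, without U0126 replicate 1 and with no filter (range 0.00228 to 0.335). Plxnb2, the most abundant guidance receptor, had 362 and 414 CPM with U0126 against 417 and 458 CPM in controls (log2 fold change -0.17 ± 0.10, edgeR adjusted p = 0.296). Nrp2, the neuropilin that binds Sema3f, had 247.8 and 260.5 CPM with U0126 against 277.5 and 301.2 CPM in controls and did not pass (log2 fold change -0.19 ± 0.09, edgeR adjusted p = 0.200). Nrp1, the neuropilin that binds Sema3a, had 121 and 132 CPM with U0126 against 100.9 and 109 CPM in controls and did not pass either (log2 fold change 0.27 ± 0.10, edgeR adjusted p = 0.0948), except without U0126 replicate 1. Plxnd1, the Sema3e receptor, was at -0.02 ± 0.13 on the log2 scale. Plxna4 had the largest fold of the receptors that did not pass (log2 fold change 1.90 ± 0.77), and 1 library carried it, with 50 and 11 counts with U0126 against 8 and 10 in controls. Plxna4 was kept by the filter on low counts only through its U0126 libraries. It passed, as higher, without U0126 replicate 2. The other plexins were Plxna1, Plxna2 and Plxnb1, at 0.18, 0.22 and -0.05, of which Plxna1 passed, as higher, without U0126 replicate 1.

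All 4 tested Slit and Robo genes had both U0126 libraries above both controls, as did 31.8% of all genes tested. Of the 4, 3 passed as higher, against 8.41% of all genes tested. Slit3, a Slit that bone and connective tissue cells secrete (chromosome 10, 20320878 to 20518518, rn6), had 367 and 359 CPM with U0126 against 246.8 and 270.8 CPM in controls (log2 fold change 0.49 ± 0.09, edgeR adjusted p = 0.0111). Slit2 had 119.9 and 115 CPM with U0126 against 81.0 and 96.9 CPM in controls (log2 fold change 0.40 ± 0.11, edgeR adjusted p = 0.0453). Robo2, one of the receptors of both (chromosome 11, 11062790 to 11585765, rn6), had 54.7 and 31.8 CPM with U0126 against 15.3 and 18.0 CPM in controls (log2 fold change 1.38 ± 0.24, edgeR adjusted p = 0.00878). Its U0126 libraries differed by 1.72-fold, and the log2 fold change was 0.94 without the first and 1.71 without the second. Robo1, which lies 919 kb from Robo2, had 5.40 and 4.06 CPM with U0126 against 2.32 and 2.96 CPM in controls and narrowly missed the threshold (log2 fold change 0.84 ± 0.25, edgeR adjusted p = 0.0550). It passed, as higher, without U0126 replicate 2 and under the stricter filter. The calls of Slit3 and Slit2 were lost without either control, and that of Slit2 also with library totals alone, with no filter and with the replicate block, with adjusted p up to 0.156 for Slit3 and 0.370 for Slit2. The call of Robo2 was lost without control replicate 1 (edgeR adjusted p = 0.0766, in a range down to 2.71e-07). Slit1, known from the nervous system, had 6 and 2 counts with U0126 and 0 in both controls. Its ratio was 2.99-fold against the floor of 3 counts over the group, with the U0126 counts taken as exact. Robo3 had no count.

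Of 5 tested netrin and Unc5 genes, 1 was lower and the other 4 did not pass. That is a called share of 20.0%, against 19.9% of all genes tested. All 5 had log2 fold changes below 0, where the median over all genes tested was 0.02. Ntn4, a netrin of basement membranes that binds laminin (chromosome 7, 34533543 to 34649481, rn6), had 51.1 and 55.5 CPM with U0126 against 76.5 and 66.9 CPM in controls (log2 fold change -0.43 ± 0.11, edgeR adjusted p = 0.0312). The call was lost without either control and with the replicate block, with adjusted p up to 0.295. Unc5b, a dependence receptor for netrin 1 and the most abundant receptor of the family at a mean of 56.2 TPM, had 166 and 154 CPM with U0126 against 186 and 209 CPM in controls. It did not pass (log2 fold change -0.30 ± 0.10, edgeR adjusted p = 0.0772) but did, as lower, with library totals alone, under DESeq2 and without U0126 replicate 1, in a range of 0.0321 to 0.5. Ntn1, the classic netrin, had 14.5 and 21.9 CPM with U0126 against 20.7 and 18.9 CPM in controls, with overlapping groups (log2 fold change -0.12 ± 0.20). Unc5c was at -0.73 ± 0.26 (edgeR adjusted p = 0.0963) and Ntn3 at -0.08 ± 0.42 on the log2 scale. Ntn1 and Unc5c passed, as lower, without U0126 replicate 2. The netrin receptor Dcc had 0 counts in all libraries. Neo1, which encodes the netrin receptor neogenin, had 155 and 148 CPM with U0126 against 121 and 141 CPM in controls. It did not pass (log2 fold change 0.21 ± 0.10, edgeR adjusted p = 0.206).

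Genes without a test were Epha3, Epha7, Epha10, Efnb3, Ntn5, Sema3g, Sema4d, Sema5b, Sema6d and Slit1, whose counts summed to between 2 and 27 over the 4 libraries, and 9 with no count, all receptors. Those 9 were Epha5, Epha6, Epha8, Ephb1, Plxnb3, Plxnc1, Robo3, Unc5a and Unc5d. A library with 0 counts allows a level of up to between 0.0701 and 0.0813 CPM, for counting error only. Sema6d had 5 and 13 counts with U0126 and 0 in both controls. Its ratio was 6.73-fold against the floor of 3 counts over the group, with the U0126 counts taken as exact. Epha3 had 17 and 0 counts with U0126 and 6 and 2 in controls, and Sema5b had 9 and 8 with U0126 and 6 and 0 in controls. The pooled ratio for Sema5b, U0126 over control, was 3.18 with an exact 95% interval of 1.2 to 9.85, and for Epha3 it was 2.38 (0.975 to 6.38). Low counts were even more often than odd, and if both reads of a pair were counted, which was not tested, these intervals are too narrow and the floors too low.

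Genes of the same pathways outside these families were taken from lists of partners of the ephrin, semaphorin and Slit-netrin receptors. Of 87 tested, 10 were higher, 20 were lower and 57 did not pass, with a median log2 fold change of -0.13. Genes are counted here by gene identifier, so Abl1, in the ephrin list under 2 identifiers that both did not pass, counts as 2. Over all genes tested 8.41% were higher and 11.5% lower. In the ephrin list, 2 of 22 were higher and 4 lower. Mmp2, a gelatinase, was higher (2088 ± 205 CPM with U0126 and 707 ± 42.2 CPM in controls, SD), the kinase Fyn was higher (23.2 ± 0.779 CPM with U0126 and 14.8 ± 0.388 CPM in controls) and Vav2, a signalling protein used by Eph receptors, was lower (13.2 ± 1.35 CPM with U0126 and 24.0 ± 2.19 CPM in controls). The other gelatinase of the list, Mmp9, was 1.69-fold lower. In the semaphorin list, 3 of 33 were higher and 7 lower. Cntn2, an adhesion molecule of the immunoglobulin family, was 4.17-fold higher, and Dpysl2, the cytoskeletal mediator of Sema3a signals also called CRMP2, was 1.56-fold higher, while the GTPase Rras2 was 1.51-fold lower. In the Slit and netrin list, 5 of 32 were higher and 9 lower. The heparan sulphate carrier Gpc1, a glypican that binds Slits, was 1.99-fold higher, while the carrier Sdc1, a syndecan, was 1.90-fold lower and the actin regulator Vasp 1.68-fold lower. The counts over these 87 genes were 3 higher and 6 lower without control replicate 1, 4 higher and 6 lower without control replicate 2, and 16 higher and 31 lower without U0126 replicate 2. Without control replicate 1 Vasp lost its call, without control replicate 2 Vav2 did, and without either Fyn, Rras2 and Dpysl2 did.

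**Figure D4:**
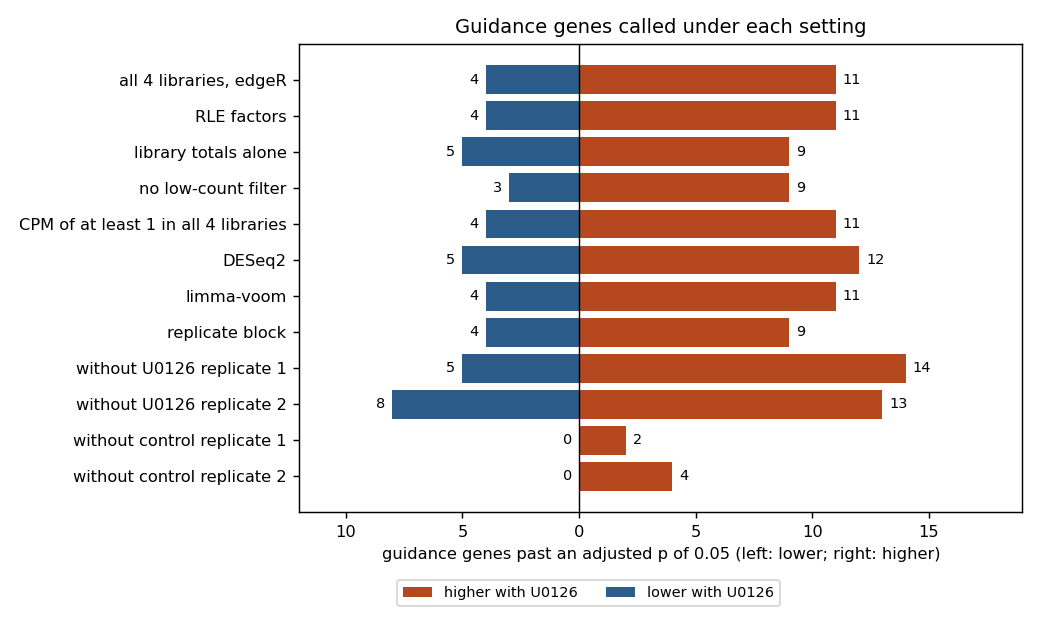
Number of guidance genes past an adjusted p of 0.05 in each direction, drawn to the right for higher and to the left for lower, for the edgeR test on all 4 libraries and each alternative. With all 4 libraries there were 11 higher and 4 lower, against 2 and 0 without control replicate 1 and 4 and 0 without control replicate 2.

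The deposited TPM values did not follow the counts for every guidance gene. The length implied by the deposited count and FPKM differed by over 1.1-fold between libraries for 4 of the 48, namely Unc5c (1.72-fold), Robo2 (1.67-fold), Sema4c (1.34-fold) and Sema4a (1.12-fold). Robo2 had 18.5 and 12.1 TPM with U0126 against 3.54 and 7.10 TPM in controls, so its controls differed by more in TPM than in CPM, where they were 15.3 and 18.0. Unc5c was at -1.46 on the log2 scale by TPM and at -0.73 by counts, both U0126 over control. For Sema4c the sign differed, at 0.09 by TPM and -0.05 by counts. The tests rest on counts alone, and the levels per length of these 4 genes carry this added uncertainty.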

How the data were processed

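RNA libraries from TSPC were made with Trizol and an Illumina protocol, per the labels' protocols. Positions are on rn6, the rat build given by the submitters' processing notes. No source used here states the aligner, the counter, its strand setting or the annotation release. Each library has 3 columns in the table that the authors deposited, count, TPM and FPKM, per the file headers. The deposited counts were whole and not normalized. The deposited TPM values served for levels across genes. The deposited FPKM values served to derive a length per gene. Of counts from 2 to 13, between 65.1% and 70.6% were even, and whether both reads of a pair were counted was not tested.

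Genes passing edgeR's filterByExpr (minimum count 10, minimum total 15) were scaled by TMM and compared with glmQLFit and glmQLFTest, two-sided, group only, with Benjamini-Hochberg adjustment over all 14023 tested genes and a threshold of 0.05. Standard errors were derived from the F statistic, as the size of the log2 fold change over its root. CPM are TMM-scaled. A group at 0 counts was given a floor of 3 counts, with the counts of the other group taken as exact. Intervals and floors cover counting error only. The software was edgeR 4.0.16, DESeq2 1.42.0 and limma 3.58.1 under R 4.3.3.

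All called guidance genes are named, with the most abundant tested gene of each family and up to 3 called genes with the smallest adjusted p in each partner list. Other genes named were chosen after their values were seen. The members and lists were chosen with earlier results of these data known. Alternatives were RLE factors, library totals, no filter, CPM of at least 1 in all 4 libraries, DESeq2, limma-voom, a replicate block, and each library left out. The main fit did not pair libraries by replicate number, and whether same-numbered libraries share an animal or culture is not known. The correlation over genes of replicate 1 minus replicate 2 between the groups was -0.0461.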

Additional observations from a re-analysis of the deposited data

How the results depend on the processing

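With 1 library left out, called guidance genes numbered between 2 and 21, between 2 and 14 of them higher and between 0 and 8 lower, against 15, 11 and 4 with all libraries. Over all genes the calls ranged from 899 to 4644, of which 295 to 2138 were higher and 604 to 2506 lower, and over the partner genes from 9 to 47, with 3 to 16 higher and 6 to 31 lower. The low ends came from leaving out a control and the high ends from leaving out U0126 replicate 2, except the 14 higher guidance genes, which came from leaving out U0126 replicate 1; the cause was not tested. A lone library is assumed to vary like the other group. Under the 7 alternatives that kept all 4 libraries, these counts stayed within 1.5 times, and called guidance genes numbered between 12 and 17. The labels' replicate numbers are not tied to a shared animal or day. With the replicate block, 13 guidance genes passed, of which 11 were among the 15, while Ntn4, Ephb3, Slit2 and Efna1 did not pass and Epha2 and Sema7a did. Under CPM of at least 1 in all 4 libraries Efna1 and Sema3a were not tested. With library totals alone the median of all genes moved by -0.0538 on the log2 scale. Depth limits the 10 guidance genes with counts too low to test.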
